A study of Glycyrrhiza uralensis with 48 samples.

Results

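A group of 136 genes was examined in seedlings of Glycyrrhiza uralensis, a licorice. In unstressed seedlings these genes were measured almost entirely in aerial parts, and in seedlings under salt and drought together their aerial level was lower. The genes were selected on measured values, out of 38463 rows in the authors' table of FPKM, a level normalised for the length of the transcript and the size of the library. The selection required a mean of at least 5 FPKM in the aerial controls and at most 1 FPKM in the underground controls. On the log2(FPKM + 1) scale, salt-drought minus control then had to be -0.8 or lower in aerial parts and between -0.6 and 0.6 in underground parts. The control limits alone were met by 593 genes, called aerial-restricted here. The other 457 of them serve as the comparison set.

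The study holds 48 libraries in 16 groups of 3, taken at an age of 45 days from seedlings raised in sterilised desert sand, 75 seeds to a pot. Aerial parts (24 libraries) and underground parts (24 libraries) were each collected under 4 conditions. The control received distilled water. Drought meant sand held at 35 to 45% of its saturation water content, salt meant NaCl at 75 mM, and salt-drought combined them. Each condition was run without silicate and with 2 mM silicon given as K2SiO3, which also brings potassium. All seedlings grew in sand without nutrients, the controls included. The labels do not tell whether the 3 libraries of a group are separate pots, and the p-values below then reflect only how far these libraries differ, which may be technical.

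Aerial parts carry leaves and stems, where photosynthesis, transpiration and the making of the cuticle take place, and roots lack most of these functions. Salt in the soil lowers the water available to the plant and later loads leaves with sodium and chloride, while drought acts through water alone. Silicon is taken up by roots as silicic acid, moves to the shoot in the transpiration stream and is widely applied to ease both stresses. The deposited files pair no gene identifier with a name or a description, so the function of each of the 136 genes is not given here, and genes are called by identifier.

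Of the 136 genes, 125 have a gene model, and 11 are new genes by their label and have no position. The control level was modest in most of them. Mean aerial control FPKM ran from 5.05 to 184.6 with a median of 10.9 and quartiles of 7.02 and 19.0, against a median of 11.8 in the other aerial-restricted genes. In all, 105 of the 136 genes were under 20 FPKM and 13 were at 40 FPKM or more. All 3 aerial control libraries reached 5 FPKM for 83 genes, and for the rest at least 1 control library lay lower. In 8 genes a single library held over 80% of the control FPKM. The genes thus include some whose control level rests on 1 library.

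The selecting values are given here as a description. The salt-drought minus control difference in aerial parts, on the log2(FPKM + 1) scale, had a median of -1.44 over the 136 genes, with quartiles of -1.79 and -1.15 and a lowest value of -3.50. Just inside the limit stood Glyur000070s00008058 and Glyur003252s00036287, both at -0.82, with mean FPKM of 7.72 in control and 3.84 in salt-drought for the former and 5.90 and 2.78 for the latter. Just outside stood Glyur001782s00031727 at -0.80 (14.0 and 6.60 FPKM) and Glyur000094s00007878 at -0.78 (8.66 and 4.68 FPKM). A further 17 aerial-restricted genes fell as far in aerial parts but missed the underground limit.

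The 136 genes were followed library by library through their median FPKM. The median lay between 9.41 and 12.3 FPKM in the control libraries and between 2.74 and 3.03 in the salt-drought libraries, the 2 groups that chose them. Drought libraries lay between 7.72 and 10.3, close to the controls. The salt libraries were spread widely, at 3.35, 5.71 and 8.60. Without silicate, salt was therefore intermediate, with library 1 near the salt-drought level and library 3 near the drought level.

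With silicate the same order of conditions was seen in libraries that had no part in the selection. The median over the 136 genes was 9.21, 6.39 and 9.58 FPKM with silicate alone, and between 7.09 and 8.48 under drought with silicate. It was between 5.49 and 6.30 under salt with silicate and 3.49, 3.47 and 4.32 under salt-drought with silicate. The 3 salt-drought libraries lay below all other silicate-fed aerial libraries. Underground, the median stayed between 0.0884 and 0.456 FPKM across all 24 libraries.

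**Figure D1:**
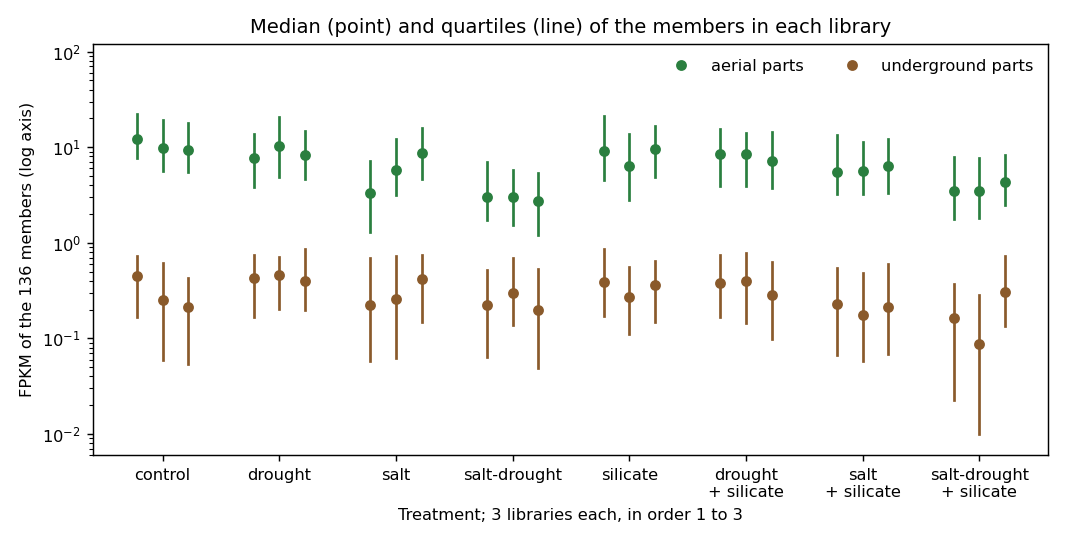
Median FPKM (points) and quartiles (lines, drawn down to 0.01) of the 136 genes in each of the 48 libraries, on a log axis, by treatment and plant part. Aerial libraries under salt-drought sit lowest among aerial libraries both without silicate (2.74 to 3.03) and with it (3.47 to 4.32), except that salt library 1 is at 3.35, and every underground library is under 0.5.

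The summed FPKM of the 136 genes, which the most abundant of them dominate, moved in the same order. It was 2608 ± 192 (SD, n = 3) with silicate alone, 2251 ± 51.9 under drought with silicate, 1631 ± 214 under salt with silicate and 1092 ± 180 under salt-drought with silicate. Without silicate it was 2610 ± 461 in control, 2435 ± 404 under drought, 1807 ± 505 under salt and 780 ± 124 under salt-drought. Underground groups summed to between 49.4 and 85.8 FPKM. In a mixed tissue, fewer cells of a type and less RNA per cell cannot be told apart in these values.

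Most of the genes were lowered and not lost. A mean of at least 1 FPKM was kept by 124 of the 136 in aerial salt-drought and by 124 with silicate added. The number at 5 FPKM or more was 136 in control by selection, 100 under drought, 80 under salt and 44 under salt-drought. With silicate it was 99 unstressed, 96 under drought, 76 under salt and 59 under salt-drought.

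Markers of each plant part were taken from the controls, and they bear on the silicate-fed salt-drought group. Aerial libraries were checked with 8 genes at 100 FPKM or more in every underground control and at most 1 FPKM in every aerial control. Expressed as a percent of the underground level under the same treatment, the median of these markers was 1.08, 13.1 and 1.16% in the 3 aerial libraries of salt-drought with silicate, where they summed to between 132 and 970 FPKM. It was between 0.302 and 0.568% with silicate alone, where they summed to between 6.86 and 17.2 FPKM. Drought library 3 reached 11.8%, and the other aerial libraries stayed at 1.39% or less. None of the 8 was at 0 in the salt-drought libraries with silicate, while 6, 1 and 3 of the 8 were at 0 in the 3 without it. The part of these markers in the results below was not tested. For tests that compare this group, the number called is also given without the library at 13.1%. The descriptive counts and shares keep that library. The libraries of this group that remain, at 1.08 and 1.16%, were also above those with silicate alone.

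Whether the genes were also lower under salt-drought in silicate-fed seedlings was the main test, since neither group compared entered the selection. Its spread was estimated over all 24 aerial libraries, the selecting ones included. Of the 136 genes, 133 reached 1 FPKM in at least 3 aerial libraries and were tested. Of these, 40 were lower under salt-drought with silicate than with silicate alone at an adjusted p under 0.05 (limma, adjusted over 23389 genes), and 0 were higher. Over all tested genes 6.17% were called lower, and among the other 457 aerial-restricted genes 45 were lower (9.85%) and 10 were higher. The median log2 change was -0.84 in the 133 genes (quartiles -1.31 and -0.51), -0.16 in the other aerial-restricted genes and 0.03 over all tested genes. In the 133, 123 changes were below 0 (92.5%), against 60.2% in the other aerial-restricted genes and 46.1% in all tested genes. With only the libraries of both groups fitted, 36 genes were called lower, 31 of them among the 40, and 1 was called higher.

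The 40 called genes had log2 changes from -3.90 to -0.55 with a median of -1.44. In all 40 the 3 libraries of one group lay beyond those of the other, which largely follows from the call on the same values and adds no support. The mean FPKM of the 40 under salt-drought with silicate was at the median 31.9% of that with silicate alone. In the full set of 136, the 3 salt-drought libraries lay below the 3 silicate-alone libraries in 64 genes, against 15.6% of all tested genes and 110 of the 457 other aerial-restricted genes (24.1%). Without the library at 13.1% of the underground markers, 27 genes were called lower and the median change was -0.77. Without library 3 of silicate alone the number was also 27.

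The called share is given by level, without a test. That level averages over all 24 aerial libraries, the selecting ones included. The same split was not made for all tested genes, so nothing particular to these genes is read from it. Of 46 tested genes with a mean of 10 FPKM or more over the 24 aerial libraries, 17 were called lower (37.0%) with a median change of -1.09. Of 87 below that level, 23 were called (26.4%) with a median of -0.78. The median standard error was 0.43 in the former and 0.46 in the latter.

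**Figure D2:**
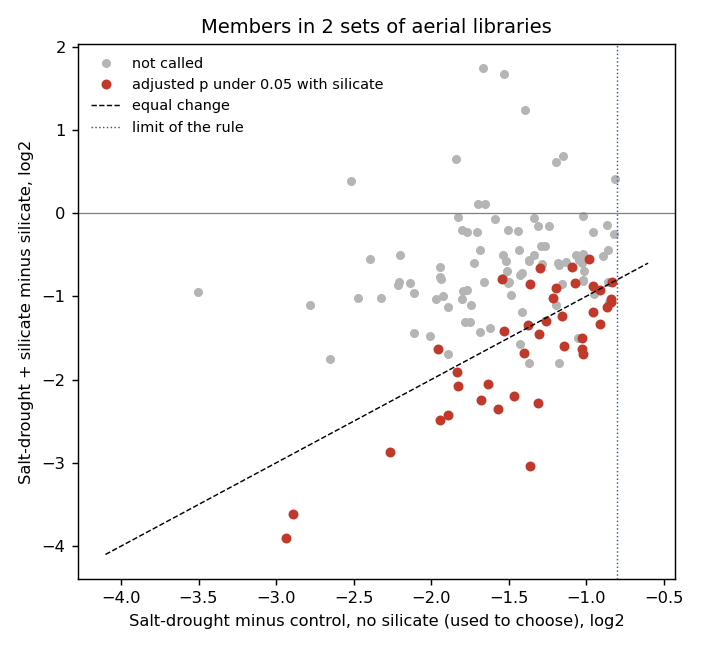
Change of the 133 tested genes under salt-drought without silicate (x axis, the values used to choose them) and with silicate (y axis), both on the log2(FPKM + 1) scale, with red points at an adjusted p under 0.05 for the y axis. All 40 red points lie below 0, and 10 of the 133 genes lie above 0 with none called.

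Glyur000001s00000026 had the largest fall with silicate. It lies on Scaffold00001 at 165772-168010 on the plus strand, has 3 exons and overlaps no other gene model. With silicate alone it was at 302, 277 and 200 FPKM, and under salt-drought with silicate at 10.6, 16.9 and 23.6. All 3 stressed libraries lay far below the lowest unstressed one. The log2 change was -3.90 with a standard error (SE) of 0.29 and an adjusted p of 2.375e-07, and the call held in all 12 alternative settings tried.

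The same gene separated salt from drought. Under drought with silicate it was at 152, 105 and 197 FPKM, and under salt with silicate at 15.3, 14.1 and 16.6. Without silicate it was at 77.0, 96.9 and 143 under drought, at 21.6, 27.2 and 24.9 under salt, at 142, 73.9 and 99.0 in control and at 15.7, 11.8 and 10.2 under salt-drought. Every library that received salt was at 27.2 FPKM or less, and every other aerial library was at 73.9 or more. Underground it was at 2.94 FPKM or less in every library.

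The next largest fall was in Glyur005689s00046703, a gene of 2 exons on Scaffold05689 at 6351-8049 on the minus strand, with no overlapping model. It was at 161, 261 and 134 FPKM with silicate alone and at 18.0, 11.8 and 11.9 under salt-drought with silicate, a log2 change of -3.61 (SE 0.35, adjusted p = 4.359e-06), and the call held in all 12 alternatives. Its 3 libraries under drought with silicate were at 179, 134 and 176 FPKM, and those under salt with silicate at 233, 90.0 and 109. Without silicate it was at 158, 160 and 153 under drought, at 95.6, 93.3 and 134 under salt and at 16.9, 10.7 and 8.85 under salt-drought. Neither stress alone brought any library below 90.0 FPKM, and all 6 salt-drought libraries were at 18.0 or less, unlike Glyur000001s00000026, which was low in every salt library.

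Each stress alone, with silicate, was compared with silicate alone. Under salt, 13 of the 133 genes were lower and 0 were higher, with 2.32% of all tested genes lower. The median change was -0.35 in the 133, and -0.01 in the other aerial-restricted genes, of which 14 were lower and 8 higher. Under drought, 0 of the 133 were called in either direction by limma, with 0.115% of all tested genes lower. For drought the median change was -0.09, the smallest adjusted p was 0.0671, and 12 genes (9.02%) had an unadjusted p under 0.05, against 7.49% of all tested genes. Without library 3 of drought with silicate, 1 was called lower. The drought median was -0.03 without library 1 of silicate alone and -0.23 without library 2.

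Glyur000001s00000026 also had the largest called fall under salt with silicate, at -3.98 (SE 0.29, adjusted p = 6.677e-07). Glyur000374s00017957, a gene of 1 exon on Scaffold00374 at 127910-128302 on the plus strand, was second. It was at 23.3, 22.7 and 15.9 FPKM with silicate alone and at 0.681, 0.979 and 1.40 under salt with silicate, so the groups stood far apart. Its log2 change was -3.41 (SE 0.30, adjusted p = 2.621e-06). Under drought with silicate it was at 12.0, 6.01 and 10.5 FPKM, and under salt-drought with silicate at 1.21, 1.53 and 2.14. Both salt groups were thus below 2.2 FPKM, while the drought libraries lay below silicate alone and above both salt groups.

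**Figure D3:**
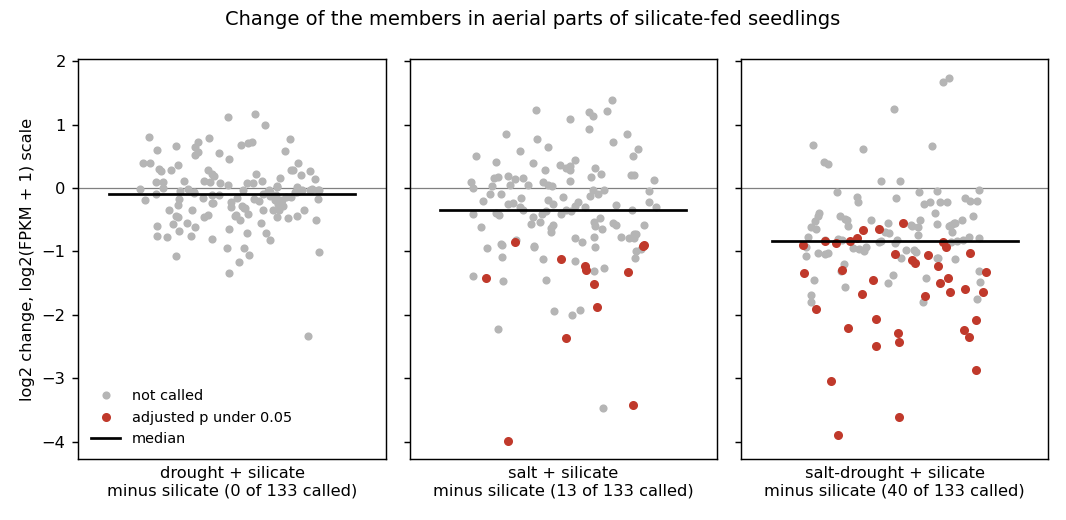
log2 change of the 133 tested genes against silicate alone, one point a gene (sideways position has no meaning), under drought, salt and salt-drought with silicate, with the median as a line and called genes in red. The median moves from -0.09 to -0.35 to -0.84 and the number called lower from 0 to 13 to 40, and the 3 panels share the libraries of silicate alone.

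The 4 silicate-fed conditions were ranked in each gene by their mean on the log2 scale, not by mean FPKM. Salt-drought had the lowest mean in 95 of the 136 genes (69.9%) and silicate alone the highest in 71 (52.2%). Salt-drought was lowest in 43.3% of the other aerial-restricted genes and in 28.6% of all tested genes. Silicate alone was highest in 26.3% of the other aerial-restricted genes and in 22.3% of all tested genes. Salt was lowest in 16.9% of the 136 and drought in 8.09%, against 24.3% and 19.9% of all tested genes. These shares are a description with no test.

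Salt was compared with drought directly in the seedlings without silicate, where neither group had entered the selection. Of the 133 genes, 4 were lower under salt and 0 were higher, with 1.28% of all tested genes lower. The median difference was -0.41, against 0.18 in the other aerial-restricted genes, of which 1 was lower and 13 were higher. That median was -0.25 without salt library 1 and -0.65 without salt library 3. The number called depended on single libraries. It was 11 without salt library 3, 2 without salt library 1, and also 2 without drought library 2. It was 5 without drought library 3, where underground markers reached 11.8%. Salt library 1 held the lowest of the 3 values in 97 of the 136 genes (71.3%), and in 56.7% of all tested genes.

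The largest called difference between salt and drought was that of Glyur000001s00000026, whose values are given above, at -2.02 (SE 0.29, adjusted p = 0.00304). The second was in a gene with no position, labelled Glycyrrhiza_uralensis_newGene_14209 in the authors' table. It was at 2.90, 7.09 and 7.70 FPKM under salt and at 15.9, 28.0 and 26.7 under drought, without overlap. Its difference was -1.88 (SE 0.30, adjusted p = 0.00609). Neither gene kept its call when only these 2 groups were fitted, with adjusted p of 0.0589 and 0.176.

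Whether salt-drought went beyond the sum of its parts was tested as an interaction in silicate-fed aerial parts. The median interaction on the log2 scale was -0.48 over the 133 genes, and 2 were called, both lower than the sum of the single stresses. Over all tested genes 0.0770% were called in that direction. In the other aerial-restricted genes the median was -0.11 and 1 was called. Without the library at 13.1% of the underground markers 1 gene was called, and the median was -0.40. With other single libraries left out, 0 were called without library 1 of silicate alone, library 1 of salt or library 3 of drought, all with silicate. Just 1 call was left without salt-drought library 3, salt library 3 or drought library 1 or 2, also with silicate.

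The smaller adjusted p of the called pair was that of Glyur000136s00007907, a gene of 3 exons on Scaffold00136 at 47063-50597 on the minus strand. It was at 36.6, 39.3 and 60.5 FPKM with silicate alone, at 44.8, 59.5 and 60.6 under drought with silicate and at 32.2, 31.0 and 27.5 under salt with silicate. Under salt-drought with silicate it was at 7.16, 7.66 and 6.45 FPKM, far below every other silicate-fed library. The interaction was -2.24 (SE 0.31, adjusted p = 0.0178), and the call was lost in 3 of 18 alternatives, each of which left out 1 library. The other was Glyur005689s00046703, at -3.05 (SE 0.50, adjusted p = 0.0263), whose call was lost in 9 of 18 alternatives.

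**Figure D4:**
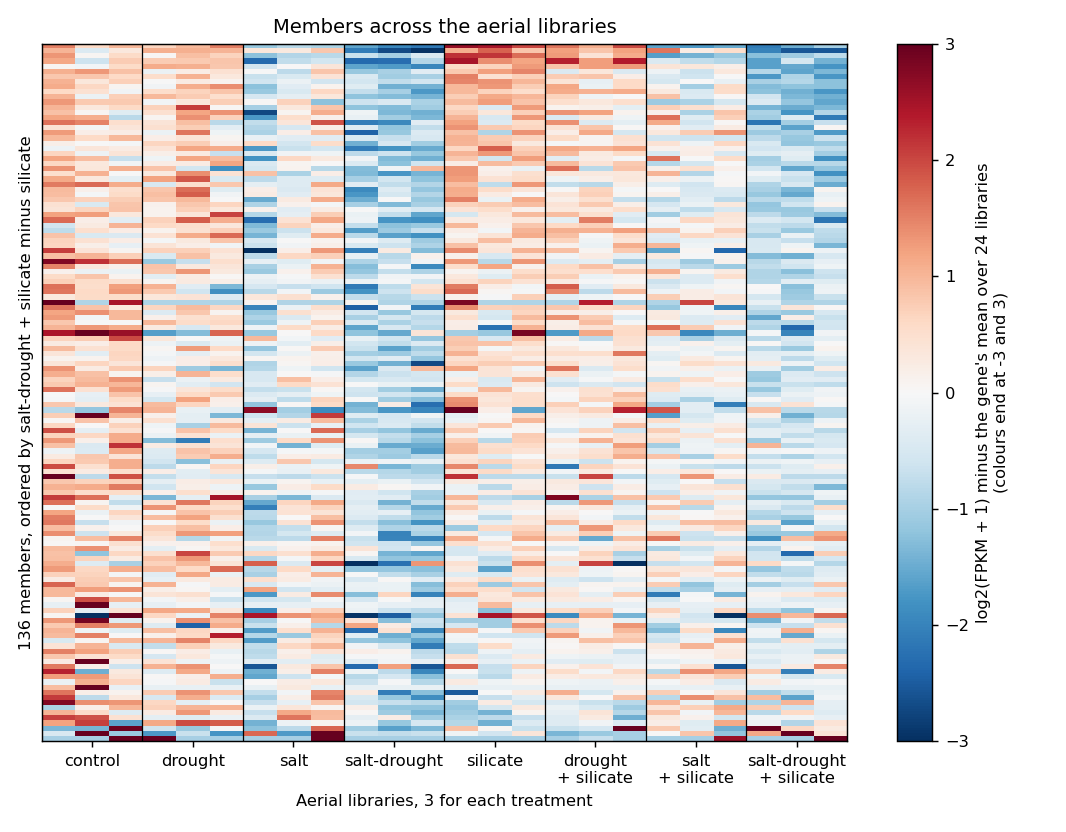
log2(FPKM + 1) of the 136 genes in the 24 aerial libraries, each row minus its mean over those libraries, ordered from the largest fall under salt-drought with silicate (top) to the highest change (bottom), with colours ending at -3 and 3. The 3 libraries of salt-drought without silicate, which chose the genes, are blue in most rows, the silicate-fed salt-drought libraries are blue in the upper rows, and the bottom rows show single libraries far above the others.

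In underground parts of silicate-fed seedlings 52 of the 136 genes reached the minimum for testing, and 53 were under 1 FPKM in all 24 underground libraries. For salt-drought against silicate alone underground, 1 of the 52 was called lower and 0 were higher, where 8.54% of all tested underground genes were called lower. The selection had required a low underground control level and, without silicate, little underground change. At such levels log2(FPKM + 1) leaves little room for a fall, so no lack of an underground response is read from this count. The median change was -0.17. It ran from -0.35 without salt-drought library 3 to -0.07 without library 1 of silicate alone, and was -0.28 without library 2 of silicate alone and -0.08 without salt-drought library 2. The called gene, Glycyrrhiza_uralensis_newGene_12970, was at 2.03, 0.0741 and 1.51 FPKM with silicate alone and is listed at 0 in all 3 salt-drought libraries. Its change was -1.01 (SE 0.33, adjusted p = 0.0473), and it is named because it was the single call. It was not called without library 1 or 2 of salt-drought or library 1 of silicate alone, and without library 2 of silicate alone 2 genes were called.

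Underground levels stayed low in most of the genes under every treatment. Under salt without silicate, 1 gene had an underground mean of 5 FPKM or more. Against the underground control, 8 genes were higher by 0.8 or more (log2) under drought and 4 under salt, and 0 were lower by as much. That control took part in the selection. In no group did more than 23 of the 136 genes reach a mean of 1 FPKM underground, and that number came under drought without silicate. Aerial and underground parts were also compared with silicate alone, in libraries the selection did not use. Here 121 of 134 tested genes were higher in aerial parts, with a median difference of 2.60 on the log2 scale, against 25.8% of all tested genes and 449 of the 457 other aerial-restricted genes. A gene low underground passed the minimum through its aerial libraries, so this count describes the genes and is no support for their choice. The largest difference, 6.74 (SE 0.30), was that of Glyur000001s00000026, at 200 FPKM or more in each aerial library and 2.05 or less in each underground library.

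The salt-drought change was also set against that of the underground parts, again with silicate, as an interaction. It was called in 16 of 134 genes, all with the lower change in aerial parts, and 1.07% of all tested genes were called in that direction. The 136 genes were selected at 1 FPKM or less in the underground controls, and 52 passed the underground minimum. At such levels log2(FPKM + 1) leaves little room for a fall, so the interaction largely repeats the aerial fall. It is given as a description, and no difference between the parts is read from it. Of the other aerial-restricted genes, 12 of 457 were lower. The median difference was -0.76 over the 134 genes and -0.23 over the other aerial-restricted genes. The count depended on the constant added before the logarithm, with 5 called at 0.1 FPKM and 26 at 5 FPKM in place of 1. Without the library at 13.1% of the underground markers it was 16.

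Glyur000374s00017957 had the smallest adjusted p for this interaction. Underground it was at 0.212, 0.207 and 0.246 FPKM with silicate alone and at 0.268, 0 and 0.464 under salt-drought with silicate, against the aerial fall described above. The underground groups overlapped. The difference between the parts was -3.04 (SE 0.35, adjusted p = 2.298e-06). Glyur000001s00000026 followed at -3.05 (SE 0.42, adjusted p = 3.84e-05). Underground it was at 2.05, 1.05 and 1.22 FPKM with silicate alone and at 0.235, 0 and 0.912 under salt-drought with silicate, without overlap, so its underground values were lower too. On a log scale with 0.1 added its difference was -1.78, and the call was lost (adjusted p = 0.253).

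Silicate itself was compared only as a description, since those comparisons share libraries with the selection. Within salt-drought, silicate-fed minus unfed had a median of 0.20 on the log2 scale over the 136 genes, and it was 0.8 or more in 19 of them. In the other aerial-restricted genes the median was -0.27. Without stress, silicate minus control had a median of -0.28 over the 136 genes and 0.06 over the others. No effect of silicate is read from these values, since the selection used one side of each difference.

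The 2 genes highest in control varied between libraries. Glyur000086s00011550, on Scaffold00086 at 342335-344068 on the minus strand with 3 exons, was at 267, 62.8 and 224 FPKM in control and at 153, 54.6 and 48.5 under salt-drought. With silicate it was at 101, 115 and 170 FPKM, and at 97.7, 28.1 and 245 with salt-drought added. Both pairs of groups overlapped.

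Glyur002870s00040965, on Scaffold02870 at 13799-18371 on the minus strand with 5 exons, was at 38.4, 0.540 and 319 FPKM in control and at 3.94, 5.79 and 15.6 under salt-drought. With silicate alone it was at 50.0, 210 and 139, and under salt-drought with silicate at 98.9, 74.0 and 124, which overlap (-0.23, SE 1.45, adjusted p = 0.947). Under salt with silicate it was at 43.3 and 24.5 FPKM in 2 libraries and is listed at 0 in the third. An exact 0 beside such values may be a failed estimate in a table of this kind.

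The largest selecting fall belonged to Glyur002062s00040006, on Scaffold02062 at 4227-6577 on the plus strand with 2 exons. It was at 21.8, 35.8 and 24.1 FPKM in control and at 0.818, 0.439 and 4.53 under salt-drought. With silicate alone, however, it was at 1.06, 0.897 and 29.4 FPKM, and under salt-drought with silicate at 3.01, 0.0582 and 2.93. The 2 silicate-fed groups overlapped, as 2 of the 3 libraries without stress were already low.

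Uneven replicates were a feature of the group. With silicate alone the median coefficient of variation over 3 libraries was 40.8% in the 134 of the genes with a level above 0, and 22.2% in the other aerial-restricted genes. It was 30.4% against 21.7% under drought with silicate, 32.7% against 23.2% under salt with silicate and 36.6% against 22.5% under salt-drought with silicate. Library 2 of silicate alone held the lowest of 3 values in 69 of the 136 genes (50.7%), against 36.5% of all tested genes. Without that library the median change under salt-drought with silicate was -1.01, and 38 genes were called.

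The 3 genes not tested in aerial parts were high in 1 library. They reached 20.7 FPKM (Glycyrrhiza_uralensis_newGene_18573), 13.9 FPKM (Glyur000974s00028625) and 14.5 FPKM (Glyur002135s00038898) in control library 2 and failed to reach 1 FPKM in 3 aerial libraries. Their control level was thus that of 1 library. Glyur003454s00042036, named after its values were seen, had the highest change under salt-drought with silicate, at 1.74 (SE 1.65, adjusted p = 0.550), on single-library values.

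The gene models of the 125 placed genes had a shorter median span than both other sets. Their median exon number and coding length were close to those of the other aerial-restricted genes. The median span was 2007 nt, against 2460 nt in the other aerial-restricted genes and 3288 nt in all genes tested in aerial parts. The median number of exons was 3, 3 and 4, and 29 of the 125 (23.2%) had 1 exon, against 17.2% and 14.5%. The median coding length was 915, 906 and 1026 nt. More than 1 transcript was annotated for 2 of the 125 (1.60%), against 4.59% and 6.99%. These shares are descriptions with no test. Another gene model overlapped 26 of the 125 (20.8%), and reads of such pairs cannot be told apart without strand.

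The genes were scattered over the assembly. The 125 genes lay on 114 scaffolds, of which 10 held more than 1 of them and Scaffold00021 held 3. In 5 places 2 of them were direct neighbours. On Scaffold00133, Glyur000133s00010351 (19436-21802, plus strand) and Glyur000133s00010353 (23414-25726, minus strand) end toward each other without overlap. The former had a mean of 23.7 FPKM in control, 7.74 under salt-drought, 23.8 with silicate alone and 6.99 under salt-drought with silicate. The latter had 17.7, 5.48, 18.6 and 4.56 FPKM in the same order. With silicate neither passed the test, with a change of -1.57 (SE 0.65, adjusted p = 0.128) in the former and -1.80 (SE 0.67, adjusted p = 0.0893) in the latter. In both, library 2 of silicate alone lay within the range of the salt-drought libraries.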

How the data were processed

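The authors deposited FPKM in 1 table of genes by libraries. Per the submitters' processing notes, TopHat2 and Cufflinks were used. They also deposited gene models with 1-based coordinates. Versions, strand handling and build are not given in the sources used here. Both nanopore and Illumina libraries are described in the labels, which do not say which gave the FPKM. Depth is unknown: the best-fitting step made between 49.8 and 70.1% of low values lie within 0.1 of a whole number, too few to recover counts, and no count model was used. The number of libraries limits the precision.

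From the deposited FPKM, log2(FPKM + 1) was analysed with limma 3.58.1 in R 4.3.3 (trend and robust options, group means only, two-sided), and a log2 change on this scale understates that of low genes. Tested genes reached 1 FPKM in 3 or more libraries of a fit: 23389 in the 24 aerial, 24478 in the 24 underground and 26335 in all 48 libraries. Calls are at a Benjamini-Hochberg adjusted p under 0.05 over all genes tested. The 8 tests compared only groups whose libraries did not enter the selection of the genes. Each fit, however, held all libraries of its part or parts, the selecting ones included. Those libraries thus shared in the estimate of the spread and in the minimum for testing, and the p-values are not fully independent of the selection. The selection and the lists were chosen with earlier results of these data known. Per comparison, the 2 called genes with the largest change, no overlap between groups and a mean of at least 5 FPKM in one group were named, or for an interaction the 2 with the smallest adjusted p. Also named were the 2 genes highest in control, the 2 with the largest selecting fall, the 2 on each side of the limit, and 1 run of neighbours. Other names are said to be chosen after their values were seen, or are single cases. Marker levels are the median over markers of FPKM as a percent of the mean of the other part's 3 libraries. The fit was run on simulated data with independent normal noise and with changes placed only in genes above a set level. That run does not cover low genes or values high in a single library, and its outcome is not given here. No sequences were used here.

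Alternatives were constants of 0.1 and 5, no filter, rescaling to a common median ratio, a replicate block, fits of only the groups compared, and each library left out.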

Additional observations from a re-analysis of the deposited data

Results flagged for a closer look

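In silicate-fed seedlings an interaction test across all 48 libraries (limma) called the salt-drought change different between the plant parts in 16 of the 134 tested genes, all lower in aerial parts. The difference was -3.04 on the log2(FPKM + 1) scale in Glyur000374s00017957 and -3.05 in Glyur000001s00000026. In both, the 3 aerial salt-drought libraries lay below the 3 with silicate alone. Both were below 2.1 FPKM in every underground library compared, where little room is left for a fall and the constant added before the logarithm weighs most. With constants of 0.1 and 5 the number called was 5 and 26. The genes were selected for a low underground level, so these values largely repeat the aerial fall and no difference between the parts is read from them. Groups of 3 are too small for a test of single outlying libraries.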

How the results depend on the processing

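Direction was checked for the median changes and for the genes named by rule in each comparison, and none reversed under any alternative run. The direction of the other genes was not checked. In aerial salt-drought with silicate, 21 of the 40 genes called lower stayed called in every alternative, the counts called lower ran from 27 to 43, and 1 gene, Glyur000802s00023727, was called higher when only the libraries of both groups were fitted. With only the groups compared fitted, 7 genes were lower under salt with silicate, 0 for salt against drought, 1 for the salt by drought interaction and 0 underground. At a constant of 5, 1 gene was lower under drought with silicate, namely Glyur000021s00002698. Underground, 2 genes were lower with no filter and 0 with the replicate block. The part by salt-drought interaction gave 5 genes at a constant of 0.1 and 26 at 5.

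With each library left out in turn, the counts ran from 27 to 38 for salt-drought with silicate, from 9 to 12 for salt and from 0 to 1 for drought. They ran from 2 to 11 for salt against drought, from 0 to 3 for the salt by drought interaction and from 0 to 2 underground. They ran from 117 to 123 between the parts and from 14 to 17 for the interaction with part. The cause of these shifts was not tested.

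Deviations of same-numbered libraries from their group means correlated between -0.249 and 0.189. Differently numbered libraries were not compared, so whether the replicate numbers pair the libraries is not settled. With the replicate block, 36 genes were lower under salt-drought with silicate, 14 under salt, 0 under drought, 4 for salt against drought, 2 for the salt by drought interaction, 121 between the parts and 16 for the interaction with part. The limit of 200 genes was not reached, so its alternative gave no value. The depth is unknown and each group holds 3 libraries.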
